A study of Mus musculus with 52 samples.

Results

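Daughter cells of single untreated founders were compared with each other and with the daughters of other founders, to see which transcripts followed the founder and which differed between cells that had separated by 1 division. The founders were burst-forming unit-erythroid (BFU-E) cells, early progenitors of red blood cells. An untreated pair entered if each of its 2 libraries held at least 100000 counts. This kept 10 of 26 pairs and 20 of 52 cells in the series, namely untreated pairs 1, 2, 3, 5, 6, 8, 9, 10, 11 and 13. The other 3 untreated pairs failed on depth, and the 13 remaining pairs had been kept with 100 nM dexamethasone, a synthetic glucocorticoid.

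All founders came from fetal liver of C57/Bl6J mouse embryos, with no transgene or mutation named. Cells bearing lineage antigens (CD3e, CD45R, Ly-6G, CD11b and Ter119), Sca-1, CD16/32 or CD41 had been depleted, and the rest were sorted on CD117 (Kit), CD71 (the transferrin receptor) and CD24. Each founder sat alone in a well, checked by microscope, in culture medium with or without dexamethasone for 16 hours, and polyadenylated RNA of each daughter was sequenced. No embryo, litter or animal is named for any founder, so founders may share one, and p-values measure the spread between cells and wells. The 20 libraries held 405058 to 5606500 counts (median 2805171) and 6048 to 9089 detected genes. Of 49466 genes, 6264 reached 5 counts in 8 or more of the 20 cells and were tested. Levels are in CPM, read counts scaled to a common library total but not to gene length, and differences are between log2(CPM + 1) values.

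A dividing cell hands its cytoplasm, with transcripts and regulators already made, to both daughters, and chromatin states can also pass through mitosis. In erythropoiesis the transcription factors GATA1 and KLF1 switch on globin, membrane and heme genes, while PU.1 (Spi1) and the C/EBP family direct granulocyte and monocyte programmes, and GATA1 and PU.1 antagonise each other. BFU-E cells lie before the stage at which most hemoglobin is made. Single-cell libraries also miss many transcripts by sampling, so a gene can be read in 1 daughter and not in the other without a difference between the cells that a second library would show again.

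The label of the cells was checked first. In 8 of the 10 pairs, 25 to 35 of 43 measured late erythroid genes reached 10 CPM in each cell. In pairs 9 and 10 only 3 to 6 did. There the 4 cells held 17277 to 41617 CPM summed over 15 granulocyte and monocyte markers, against 0.278 to 97.2 CPM in the other 16 cells, and 5 to 7 of the markers reached 10 CPM. Cebpe, Csf3r, S100a8, S100a9 and Gfi1 of that list were at 0 in all 20 cells. Both daughters of pairs 9 and 10 thus went against the label erythroid, although Ly-6G, CD11b and CD16/32, which maturing granulocytes and monocytes carry, were among the depleted antigens. Results that rest on these pairs are given with and without them where both were computed.

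Transcripts of Xist, the RNA that coats the inactive X chromosome in females, and of the Y-linked genes Ddx3y, Eif2s3y, Kdm5d and Uty gave a check on shared origin, chosen after their values were seen. In pair 9 cell 1 held 1254 Xist reads and 3 reads of the 4 Y-linked genes, and cell 2 held 3 Xist reads and 458 Y-linked reads. In pair 13 cell 1 held both, with 335 Xist and 471 Y-linked reads, while cell 2 held 1042 Y-linked reads and 1 Xist read. The 2 libraries of pair 9 therefore went against a single founder, and the library of pair 13 cell 1 held reads of both kinds. What led to either pattern was not tested. Xist was read in both daughters of 2 pairs (1 and 3) and Y-linked genes in both daughters of 5 pairs (2, 5, 6, 8 and 11), while pair 10 held 1 read of these genes in each cell. Among dexamethasone pairs 3 showed Xist in both, 3 showed Y-linked genes in both, and in 0 pairs did Xist in 1 cell meet Y-linked genes in the other. In 6 more pairs only 1 cell showed either kind, and in 1 pair neither cell did, so these could show no mismatch.

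**Figure D1:**
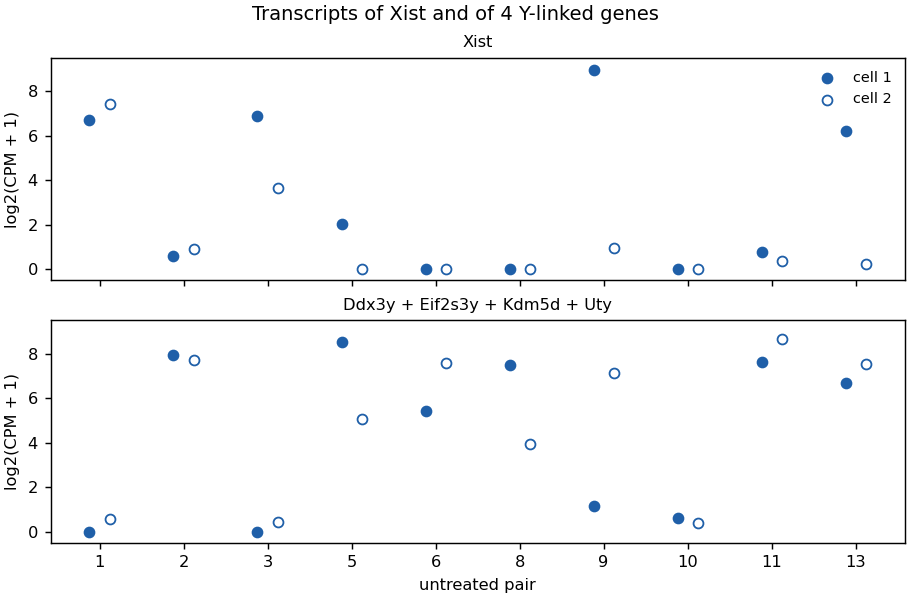
Level of Xist (top) and of 4 Y-linked genes summed (bottom) as log2(CPM + 1), by untreated pair on the horizontal axis, 1 point per cell. In pair 9 the filled cell is high for Xist and the open cell for the Y-linked genes, and in pair 13 the filled cell is high for both.

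Sisters resembled each other more than they resembled the daughters of other founders. Their Pearson correlation across the 6264 genes averaged 0.505 ± 0.047 (SD, n = 10 pairs), against 0.431 after random re-pairing of the 20 cells (two-sided permutation p = 2e-05, the smallest that 100000 re-pairings can give, 6e-05 adjusted over 3 such tests). It ran from 0.426 in pair 9 to 0.583 in pair 3. Over the 180 combinations of cells from different founders the mean was 0.427, with a range of 0.322 to 0.541, so the 2 sets overlapped. The sister was the most similar cell for 10 of 20 cells and among the 3 most similar for 18. Without pairs 9 and 10 the mean was 0.510 against 0.457, without pairs 9 and 13 it was 0.502 against 0.430 (both permutation p = 2e-05), and without all 3 it was 0.501 against 0.446 (permutation p = 6e-05).

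Daughters also shared a plate column and neighbouring rows of the library plate. Cells of different founders in 1 column were at 0.453 on average (36 combinations) against 0.420 in other columns (144 combinations). Pairs 9 and 10 were both in column 5, with pair 11. Their cells were at 0.362 with those of the 8 other pairs, and different founders among those 8 were at 0.464. Column and lineage can thus not be told apart in these averages. Within plate columns 1, 2 and 5 daughters stayed ahead, at 0.504 against 0.463 for cells re-paired inside their column (9 pairs, exact permutation p = 0.000593, the smallest of 3375 re-pairings). Without pairs 9 and 10 the values were 0.511 and 0.476 (exact permutation p = 0.00889 over 225 re-pairings). For 5 combinations of different founders in adjacent wells the correlation was 0.409 to 0.520. Library totals were closer between daughters too, with a mean difference of 0.54 on the log2 scale against 0.93 after re-pairing (permutation p = 0.0333), and so were the numbers of detected genes, at 562 against 977 (permutation p = 0.0203). Without pairs 9 and 13 neither difference passed (permutation p = 0.112 for totals and 0.0595 for detected genes). With each library thinned to 405058 counts the correlation was 0.447 against 0.372 (permutation p = 2e-05), a gap as large as before.

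**Figure D2:**
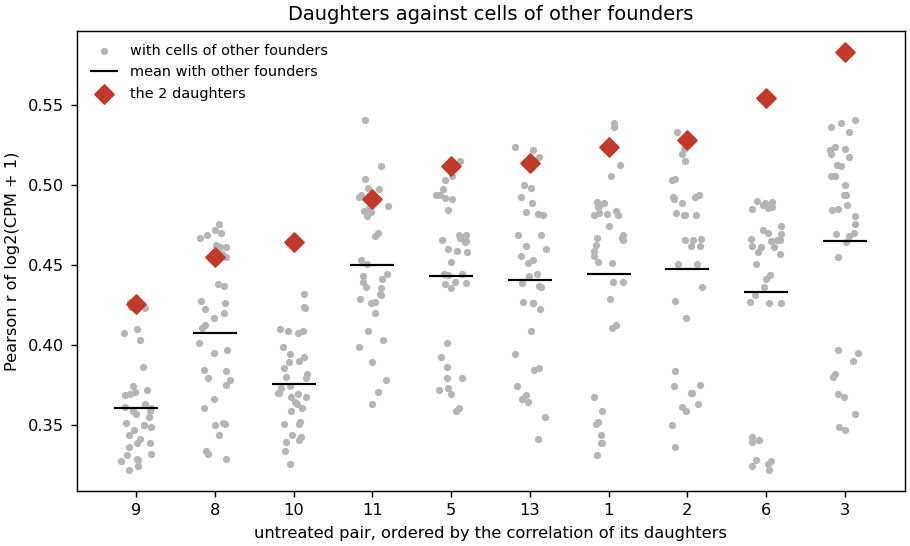
Pearson correlation of log2(CPM + 1) over 6264 genes (vertical axis) for each untreated pair (horizontal axis): diamonds, the 2 daughters; grey points, each daughter with every cell of other founders; black lines, mean of the grey points. Every diamond lies above the black line of its pair, and pair 9 is lowest for its daughters at 0.426.

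The same held for which genes were read at all. Of genes at 10 CPM or more in at least 1 of 2 cells, 63.1% ± 11.02 (SD, n = 10 pairs) reached it in both daughters, against 57.8% for re-paired cells (permutation p = 2e-05). On the log2 scale the median over genes was 2.14 for differences within pairs and 2.93 for those across founders. Taken gene by gene, the median excess of the founder difference over the daughter difference was 0.25, and 0.10 without pairs 9 and 10. With all pairs 4448 genes (71.0%) differed less between daughters. Measured against the mean of re-paired cells the share was also 71.0%, and without pairs 9 and 10 it was 60.4% of 5898 genes. With all pairs the share was larger among highly expressed genes. Among 76 genes with a mean of at least 1000 CPM the medians were 0.49 and 0.69, and 93.4% differed less between daughters. Among 444 genes below 10 CPM they were 0.84 and 0.94, with 64.4%.

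Few single genes stood out against the spread between daughters. The quasi-likelihood F test of edgeR, with 1 term per pair and the daughters as replicates, called 29 of 6264 genes different between founders at an adjusted p under 0.05 (0.463%), and 714 had an unadjusted p under 0.05 (11.4%). Limma called 359 genes (5.73%), 26 of the 29 among them, and DESeq2 1042 with all 29. Of the 29, 19 did not overlap in level between pairs 9 and 10 and the other 8 pairs, against 2.28% of all genes tested, and 8 were higher in pairs 9 and 10. Mpo is among the 19 and also among the markers that set these pairs apart. Without these 2 pairs edgeR called 1 gene, Hba-a1 (0.017%; 355 genes at an unadjusted p under 0.05), while leaving out pair 9 alone gave 26 calls, 17 of them shared with the 29, and leaving out pairs 9 and 13 also gave 26, 16 of them shared. Re-pairing the 20 cells gene by gene called 11 genes as closer in daughters (0.176%) and 0 as further apart (0%; 54 genes, 0.862%, at an unadjusted permutation p under 0.05). Of those 11, edgeR had called 9, and 0 of the 11 were called when pairs 9 and 10 were left out. Inside plate columns 0 genes passed (0%), and 361 had an unadjusted exact permutation p under 0.05 (5.76%), each of them closer in daughters. The smallest possible p there was 0.000593, so over 6264 genes none could pass unless many reached that floor together. That 0 therefore does not show that sharing was absent inside columns.

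**Figure D3:**
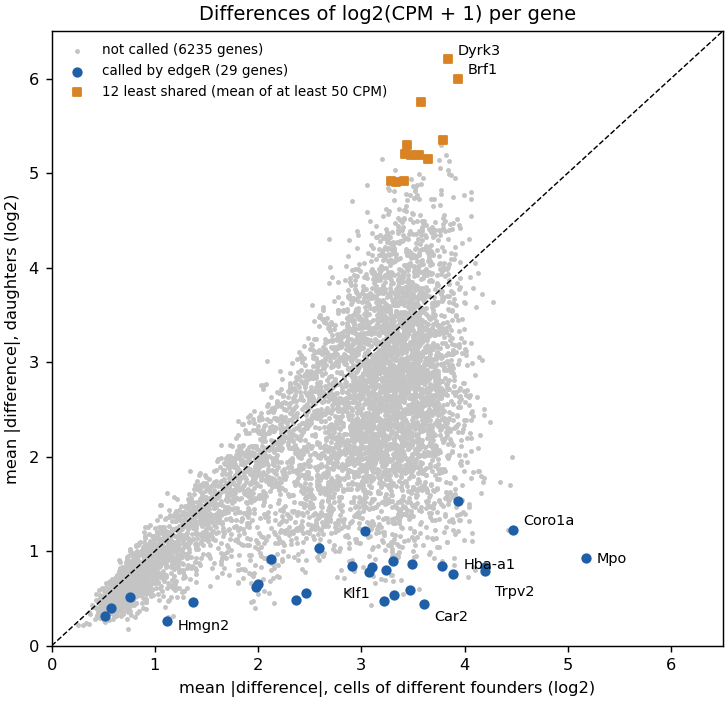
Mean absolute difference of log2(CPM + 1) for each of 6264 genes, between cells of different founders (horizontal axis) and between daughters (vertical axis), with the dashed line marking equal values. The 29 genes called by edgeR (blue) lie below the line, as do 71.0% of all genes, and the 12 genes with the largest excess between daughters at a mean of at least 50 CPM (orange squares) lie above it.

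Of the 29 genes called, 8 had higher mean levels in pairs 9 and 10, and Mpo, Coro1a, Tmsb4x, Arhgdib and Hmgn2 were among them. Mpo, the peroxidase of neutrophil granules (chromosome 11 from 87793581 to 87804413 on GRCm38), was at 23921 and 8132 CPM in the 2 cells of pair 9 and at 16739 and 13878 CPM in those of pair 10. In the other 16 cells it was at 0 to 51.8 CPM (median 9.68), and the highest of these were the 2 cells of pair 5 at 43.2 and 51.8 CPM. Pairs 9 and 10 had been set apart by at least 3 granulocyte and monocyte markers at 10 CPM in both cells. Mpo and Prtn3 belong to that list, so their gap between the groups describes the choice. On the log2 scale the Mpo difference was 0.93 ± 0.71 within pairs (SD, n = 10 pairs) and 5.18 across founders (edgeR adjusted p = 2.6e-06), and without pairs 9 and 10 it was not called (adjusted p = 0.830). Prtn3, which encodes proteinase 3 of the same granules, was at 1330 to 3473 CPM in pairs 9 and 10 and at 0 to 9.88 CPM elsewhere. It failed the filter because fewer than 8 cells held 5 counts of it. Spi1, the gene of PU.1, was at 134 to 385 CPM in these 4 cells and at 0 to 48.3 CPM in the others, and was not called (adjusted p = 0.361).

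Coro1a, an actin-binding protein of white blood cells, was at 808 to 1852 CPM in pairs 9 and 10 and at 0 to 207 CPM (median 1.33) in the other cells. Of those others, only cell 1 of pair 2 at 148 CPM and cell 2 of pair 5 at 207 CPM exceeded 10 CPM, and their sisters were at 3.87 and 7.71 CPM. Tmsb4x, thymosin beta 4, which binds actin monomers, was at 1411 to 3192 CPM against 1.40 to 267 CPM. Arhgdib was at 2034 to 4640 CPM against 237 to 1473 CPM, and Hmgn2, a nucleosome-binding protein, at 1571 to 2611 CPM against 210 to 648 CPM. None of these ranges overlapped. Hmgn2 differed by only 0.26 ± 0.20 between daughters (SD, n = 10 pairs) against 1.12 between founders. The edgeR adjusted p was 0.00221 for Coro1a, 0.00238 for Tmsb4x, 0.00101 for Arhgdib and 0.00207 for Hmgn2. With pairs compared inside a plate column it was 0.0187 for Coro1a, and Tmsb4x (0.118), Arhgdib (0.114) and Hmgn2 (0.142) were not called. Pairs 9 and 10 shared column 5 with pair 11 only. Inside a column they could thus be set against pair 11 alone. This limit holds for every gene given inside plate columns, and a call lost there does not tell plate column from lineage.

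Erythroid genes showed the reverse order of levels. Gata1 (chromosome X from 7959260 to 7978071), the transcription factor of the lineage, was at 0.630 to 2.15 CPM in pairs 9 and 10 and at 119 to 870 CPM (median 515) in the other 16 cells. Klf1 (chromosome 8 from 84901928 to 84905291), which activates globin and membrane genes, was at 1.02 to 4.29 CPM against 150 to 1643 CPM. Car2, carbonic anhydrase 2 of red cells (chromosome 3 from 14886273 to 14900770), was at 0.630 to 7.36 CPM against 605 to 4270 CPM. No cell of the 8 pairs came near the 4 cells of pairs 9 and 10 for any of the 3 genes. Car2 was also held closely by sisters within the 8 pairs, at 4270 and 3963 CPM in pair 1, 1291 and 1321 CPM in pair 3, 605 and 768 CPM in pair 5 and 2004 and 2030 CPM in pair 6. Its mean difference was 0.44 ± 0.66 between daughters (SD, n = 10 pairs) against 3.60 between founders (edgeR adjusted p = 0.000267), and within the 8 pairs 0.23 against 0.87 (adjusted p = 0.0715). For Klf1 the adjusted p was 0.00221, with 0.54 ± 0.83 between daughters and 3.32 between founders, and for Gata1 it was 0.00954, with 0.90 ± 0.60 and 3.31. Within the 8 pairs Gata1 differed by 1.02 between daughters and by 0.92 between founders, so there the mean difference was not smaller between daughters (adjusted p = 1.00), and Klf1 was at 0.58 and 0.93 (adjusted p = 0.961). Leaving out pair 9 alone (adjusted p = 0.0599) or pair 10 alone (0.107) already ended the Gata1 call.

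Membrane genes of the erythroid lineage followed. Ermap, an erythroblast membrane protein, was at 0.508 to 1.23 CPM in pairs 9 and 10 and at 40.0 to 546 CPM elsewhere, with sisters at 327 and 302 CPM in pair 2 and 69.4 and 86.4 CPM in pair 5. Rhag, the Rh-associated glycoprotein, was at 0.508 to 1.58 CPM against 28.3 to 1131 CPM. Cd24a, whose product was stained in the sort, broke the pattern: the cells of pair 2 lay at 2.53 and 0.860 CPM, beside the 0.315 to 1.58 CPM of pairs 9 and 10, while the other 14 cells held 24.7 to 971 CPM. The adjusted p in edgeR was 0.0133 for Ermap, 0.00337 for Rhag and 0.00221 for Cd24a. Without pairs 9 and 10 none of the 3 was called, at 0.648, 0.388 and 0.134.

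Promoter sequence of Klf1, Hba-a1, Ermap and Mpo is shown as examples of genes with opposite levels in the founders. The window searched was the 250 bases before the first start that RefSeq lists, and only its bases outside the GENCODE gene are printed, since that gene begins further upstream. Capitals mark the GATA motif, searched on both strands as NGATAN with A or T first and A or G last. The sequences are from RefSeq (GRCm38.p6), written in the direction of transcription.
Klf1 promoter, chr8:84901732-84901927 (plus strand): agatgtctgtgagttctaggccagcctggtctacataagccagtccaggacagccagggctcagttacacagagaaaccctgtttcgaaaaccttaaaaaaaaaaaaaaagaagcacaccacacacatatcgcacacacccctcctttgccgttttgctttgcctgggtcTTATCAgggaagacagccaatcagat
Hba-a1 promoter, chr11:32283422-32283510 (plus strand): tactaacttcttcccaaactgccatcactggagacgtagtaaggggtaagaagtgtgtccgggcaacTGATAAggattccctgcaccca
Ermap promoter, chr4:119190012-119190245 (minus strand): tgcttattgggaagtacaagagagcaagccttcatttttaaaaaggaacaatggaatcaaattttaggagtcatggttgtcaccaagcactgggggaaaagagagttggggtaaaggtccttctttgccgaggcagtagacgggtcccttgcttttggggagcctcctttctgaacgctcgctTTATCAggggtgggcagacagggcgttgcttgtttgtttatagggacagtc
Mpo promoter, chr11:87793534-87793580 (plus strand): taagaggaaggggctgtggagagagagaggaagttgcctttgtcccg
The motif begins 80 bases before the RefSeq start in Klf1, 183 in Hba-a1, 67 in Ermap and 31 in Rhag. The windows of Mpo and of Gata1, itself a called erythroid gene, do not hold these letters, and the Gata1 window lies wholly inside the GENCODE gene. Of 27025 promoters of this length 27.1% hold the motif, as do 16.0% of 4668 promoters of tested genes and 8 of the 24 promoters found for called genes. A match is a description of the sequence and says nothing of binding in these cells.

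Globin transcripts graded the founders within the erythroid pairs as well. Hba-a1, an adult alpha globin gene (chromosome 11 from 32283511 to 32284465), was at 994 and 1053 CPM in pair 1, 672 and 1114 CPM in pair 6 and 537 and 726 CPM in pair 8. It was at 240 and 298 CPM in pair 13, 78.5 and 173 CPM in pair 3 and 72.0 and 46.3 CPM in pair 11. The lowest of the 8 were pair 5 at 26.2 and 14.8 CPM and pair 2 at 14.7 and 20.6 CPM, and pairs 9 and 10 held 0 to 9.81 CPM. Each pair thus took a narrow part of a range that spanned 14.7 to 1114 CPM over the 8 pairs. The Hba-a1 difference was 0.76 ± 0.55 within pairs (SD, n = 10 pairs) and 3.89 across founders (edgeR adjusted p = 0.00482; re-pairing adjusted permutation p = 0.0358). Within the 8 pairs the values were 0.57 and 2.83 (edgeR adjusted p = 0.0117). With pairs compared inside a plate column edgeR gave 0.0187. Hba-a1 has a near-identical copy, Hba-a2, at 0 to 74.2 CPM, and the sources used here do not say how reads of the copies were assigned.

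Hbb-bs, an adult beta globin gene, was looser. It was at 2572 and 3471 CPM in pair 1 and 3799 and 5795 CPM in pair 6, but at 270 and 1757 CPM in pair 2 and 18.5 and 239 CPM in pair 5. Its difference was 1.53 ± 1.32 between daughters (SD, n = 10 pairs) against 3.93 between founders (edgeR adjusted p = 0.0408), and it was not called without pairs 9 and 10 (0.432) or inside plate columns (0.0751). Of the 4 adult globin genes 2 passed in edgeR with all 10 pairs, and Hbb-bt (adjusted p = 0.324) and Hba-a2 (0.524) did not. The median excess of the founder difference over the daughter difference was 2.03 for this list with all pairs and 1.27 within the 8 pairs, where all genes had 0.10. Of 5 embryonic globin genes 1 reached 10 CPM, in 1 cell, and 0 passed the filter. The Hbb-bs call was also lost without pair 1 (adjusted p = 0.0625), pair 6 (0.100) or pair 10 (0.141).

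**Figure D4:**
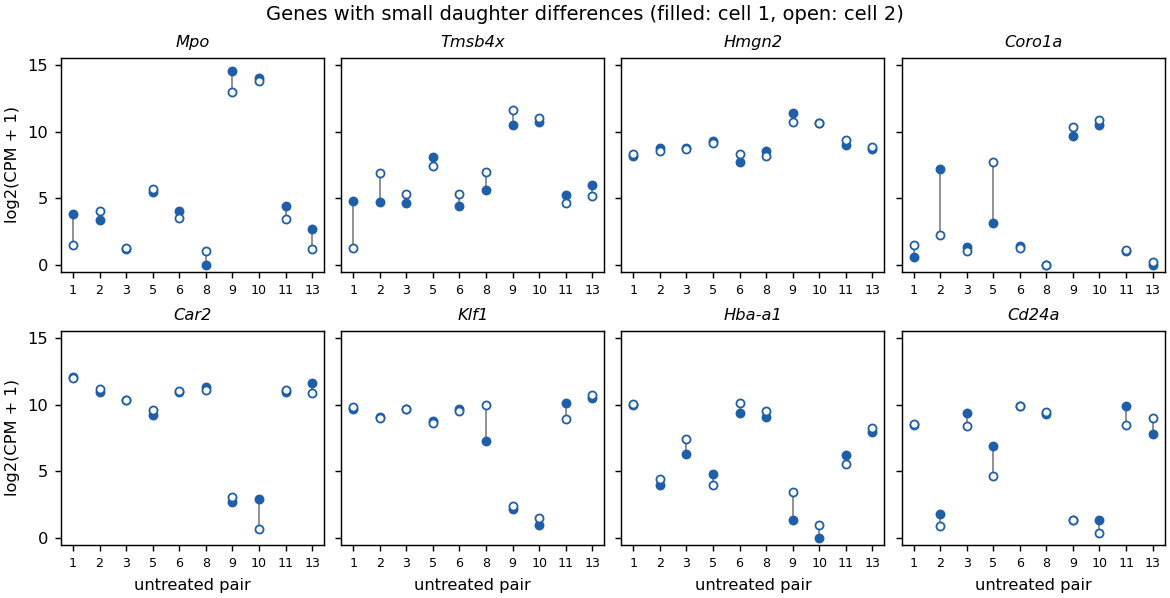
Level of 8 genes called by edgeR as log2(CPM + 1) (vertical axes) in each untreated pair (horizontal axes), with the 2 daughters joined by a line, cell 1 filled and cell 2 open. Pairs 9 and 10 stand apart in the panels other than Cd24a and Hba-a1. For Cd24a pair 2 lies beside them. Hba-a1 is graded over the other 8 pairs, down to 14.7 CPM in their lowest cell. That cell lies close to the highest cell of pairs 9 and 10, at 9.81 CPM.

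Asns, asparagine synthetase and a target of the stress factor ATF4, was at 3.05 and 3.15 CPM in pair 10, 318 and 311 CPM in pair 9 and 332 to 2256 CPM in the others (edgeR adjusted p = 0.00221). Pair 10 stood alone at the low end here, with pair 9 just under the rest, and without pair 10 the call was lost (adjusted p = 0.212). Slc16a1, a transporter of lactate and other monocarboxylates, was at 1.19 to 5.36 CPM in pairs 9 and 10 and at 113 to 1310 CPM elsewhere (adjusted p = 0.00637, and 0.0549 without pair 9). Gmpr, which converts GMP to IMP, was at 0.508 and 0.945 CPM in pair 10, but at 117 and 197 CPM in pair 9, inside the 42.0 to 703 CPM of the 8 pairs (adjusted p = 0.0408). Trpv2, a cation channel, was absent from both cells of pair 2 (0 reads each), low in both of pair 5 at 4.63 and 14.8 CPM, and at 56.0 to 650 CPM in the other 6 erythroid pairs (adjusted p = 0.0276). Within the 8 pairs Trpv2 differed by 0.87 between daughters and 3.49 between founders (adjusted p = 0.134). Lmna, which encodes lamins A and C of the nuclear envelope, was at 0.630 to 2.15 CPM in pairs 9 and 10 and at 6.17 to 807 CPM elsewhere, the lowest being cell 1 of pair 5 beside a sister at 190 CPM (adjusted p = 0.0461, and 0.136 without pair 9).

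The other named genes called were Tubb5 (beta tubulin), Actb (beta actin), mt-Cytb (cytochrome b of the mitochondrial genome), Aldh18a1 (proline synthesis), Lars2 and Lonp1 (mitochondrial leucyl-tRNA synthetase and protease), Eif3d (translation initiation), Nifk and Dnttip2 (nucleolar proteins) and Necap2. They had adjusted p-values of 0.0145 to 0.0486 in edgeR, and the antisense gene Gm15915 completes the calls. Actb was at 8094 to 21720 CPM in pairs 9 and 10 and at 4620 to 10833 CPM in the rest, with overlap. mt-Cytb was at 7205 to 27538 CPM against 4776 to 13235 CPM, and its 2 values in pair 10, 7205 and 21989 CPM, spanned most of that range. Actb (adjusted p = 0.430) and mt-Cytb (0.458) were not called inside plate columns, nor without pair 9 (0.0549 and 0.263), and Tubb5 was lost without pair 9 as well (0.162). Pcbp1, an RNA-binding protein that also carries iron, was not called by edgeR (adjusted p = 0.263) but was by re-pairing (adjusted permutation p = 0.0358). Its sisters were at 72.1 and 75.6 CPM in pair 1, 584 and 540 CPM in pair 6 and 292 and 307 CPM in pair 11, a difference of 0.30 ± 0.23 (SD, n = 10 pairs) against 1.13 between founders.

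Megakaryocyte markers marked another set of founders. The levels of 16 such genes summed to 1282 and 1695 CPM in the daughters of pair 2, 1838 and 2335 CPM in pair 5 and 1039 and 1049 CPM in pair 13. In the other 14 cells the sum was 2.54 to 573 CPM, so both daughters of each of these 3 pairs lay above every other cell. Itga2b, which encodes the CD41 antigen used for depletion, was at 110 and 169 CPM in pair 2, 338 and 430 CPM in pair 5 and 56.6 and 196 CPM in pair 13, beside 75.7 CPM in cell 1 of pair 3, 38.7 CPM in cell 1 of pair 11 and under 1 CPM in the rest. F2r, the thrombin receptor, was at 586 and 431 CPM in pair 2, 478 and 1039 CPM in pair 5 and 219 and 292 CPM in pair 13. It ranged from 0 to 147 CPM elsewhere, without overlap. Pf4 was read at 6.17 CPM in 1 cell, and Ppbp and Gp6, further defining markers, were at 0 in all 20. Of the 16 markers 4 passed the filter (Itga2b, F2r, Gp5 and Cd9) and 0 were called by edgeR, with adjusted p of 0.138 for F2r and 0.284 for Itga2b. Over gene and pair combinations with a marker at 10 CPM in at least 1 daughter, both reached it in 22 of 49 (44.9%), against 22.4% for cells of different founders. Pairs 2 and 5 were also the lowest erythroid pairs for Hba-a1 and Trpv2, while pair 13 was not.

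The gene groups differed in how far sisters agreed. On the mean log2(CPM + 1) of 32 tested late erythroid genes, daughters differed by 0.38 ± 0.30 (SD, n = 10 pairs) and cells of different founders by 2.22, and without pairs 9 and 10 by 0.36 and 0.69. Of these 32 genes edgeR called 6 (Gata1, Klf1, Cd24a, Ermap, Rhag and Car2) where it called 0.463% of all genes, and all 32 had a smaller mean difference between daughters, against 71.0% of all genes. Their median excess was 1.51 with all pairs and 0.38 without pairs 9 and 10, where all genes had 0.25 and 0.10. For 10 heme synthesis genes, 0 of which were called, the list mean differed by 0.65 ± 0.54 between daughters and 2.15 between founders, and by 0.58 and 1.05 without pairs 9 and 10. Cpox, an enzyme of that pathway, had an adjusted p of 0.106. Of 13 iron genes 0 were called. The ferritin light chain gene Ftl1 had an adjusted p of 0.0748, and Tfrc, the transferrin receptor, was at 65.9 and 81.7 CPM in pair 13, 142 and 571 CPM in pair 10 and 1298 and 459 CPM in pair 6 (adjusted p = 0.437).

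Cytoskeleton genes gave 4 calls of 24 tested (Actb, Coro1a, Tmsb4x and Lmna), high mobility group genes 1 of 7 (Hmgn2), glycolysis 1 of 19 (Slc16a1), ATF4 targets 1 of 15 (Asns) and mitochondrially encoded genes 1 of 8 (mt-Cytb), beside 0.463% of all genes. The 82 ribosomal protein genes, 43 respiratory chain genes, 44 G1/S genes, 47 G2/M genes and 32 ribosome biogenesis genes gave 0, which at that share over all genes sets none of them apart. For the ribosomal protein genes the list mean differed by 0.40 ± 0.46 between daughters and 0.48 between founders (SD, n = 10 pairs), and for the respiratory chain by 0.35 ± 0.56 and 0.36. Single pairs carried these means: the respiratory chain differed by 1.51 in pair 10 and 1.29 in pair 11 and by at most 0.22 in the others, and without pair 10 by 0.23 between daughters and 0.25 between founders. Ribosomal protein genes differed by 1.62 in pair 11, without which the values were 0.27 and 0.39, and 80.5% of them differed less between daughters, against 71.0% of all genes. Ribosome biogenesis differed by 0.29 ± 0.27 and 1.03, but without pairs 9 and 10 by 0.35 and 0.33, and without pair 9 alone by 0.32 and 0.59. Genes of early progenitors, of which 14 were tested and 0 called, held Myc at an adjusted p of 0.0616, with 1.52 to 8.59 CPM in pairs 9 and 10 and 4.67 to 2030 CPM elsewhere. Kit, the receptor stained in the sort, was not called. It was at 16.2 and 950 CPM in pair 13, 85.9 and 1.40 CPM in pair 1 and 160 and 0.315 CPM in pair 10, with 3.19 ± 2.43 between daughters (SD, n = 10 pairs) and 3.57 between founders (adjusted p = 0.667). Epor, the erythropoietin receptor, was at 0.216 and 524 CPM in pair 13 but at 110 and 125 CPM in pair 1 (adjusted p = 0.453), and the proliferation gene Mki67 had an adjusted p of 0.125.

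Some transcripts varied little anywhere. Cnbp, a nucleic acid-binding protein, ran from 2232 to 4106 CPM over all 20 cells, with 0.21 between daughters and 0.25 between founders. Pfn1, profilin 1, which binds actin, ran from 1573 to 3177 CPM (0.21 and 0.31), and Hsp90ab1, a chaperone, from 3230 to 9293 CPM (0.22 and 0.36). H2afz, a histone variant, and Nudc, a nuclear migration protein, differed by 0.24 and 0.25 between daughters. Rbm8a2 had the smallest daughter difference, 0.18, but at a mean of 1.69 CPM, where few reads leave little room to differ. None of the 6 was called different between founders by edgeR (adjusted p = 0.201 to 0.654).

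At the other end, no gene passed as further apart in sisters than in re-paired cells. The 12 genes below were ranked by that excess among genes with a mean of at least 50 CPM, so their counts describe the choice. Dyrk3, a protein kinase, headed them, with 6.20 ± 2.22 between daughters (SD, n = 10 pairs) and 3.84 between founders (permutation p = 0.0106, 0.236 adjusted). It was at 253 and 0 CPM in pair 5, 416 and 0 CPM in pair 10, 302 and 0 CPM in pair 13 and 0 and 455 CPM in pair 8. In 9 of the 10 pairs cell 1 held the higher value, in 0 pairs did both daughters reach 10 CPM, and in 8 pairs 1 of them did. The numbering of daughters follows plate rows, and a term for it called 0 of 6264 genes in edgeR (107 at an unadjusted p under 0.05). Kat5, a histone acetyltransferase, was at 180 and 0 CPM in pair 1 and at 0 and 111 CPM in pair 11, and it also reached 10 CPM in 1 daughter of 8 pairs and in both of 0.

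Brf1, a subunit of an RNA polymerase III factor, was at 0.216 and 482 CPM in pair 13 and 449 and 0.630 CPM in pair 10, but at 84.0 and 106 CPM in pair 6. Cap1, which regulates actin, Atg5 of autophagosome formation, Gyg (glycogenin), Ptpn1 (a tyrosine phosphatase), the zinc finger genes Zfp148 and Zfp317, Yipf5 (a Golgi membrane protein), Ndor1 (an oxidoreductase) and Pdxdc1 complete the 12. Their mean daughter differences were 4.90 to 5.35, their founder differences 3.29 to 3.79 and their unadjusted permutation p-values 0.0215 to 0.124. Over the 12 genes, both daughters reached 10 CPM in 16 of 112 gene and pair combinations in which at least 1 did (14.3%). For cells of different founders it was 36.8%. These genes lay at moderate mean levels of 51.2 to 99.6 CPM, with 8 to 13 of the 20 cells at 10 CPM.

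**Figure D5:**
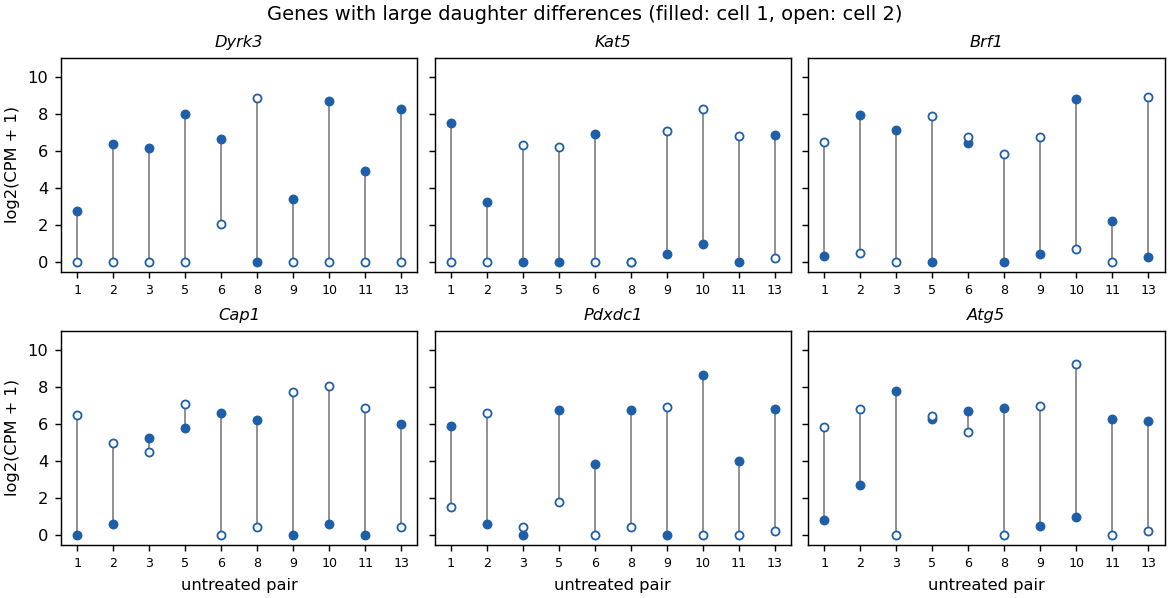
Level of the 6 genes with the largest excess of daughter over founder difference, as log2(CPM + 1) (vertical axes) by untreated pair (horizontal axes), with daughters joined by a line, cell 1 filled and cell 2 open. Most lines run from near 0 to above 5, and for Dyrk3 the filled cell is the higher one in 9 of 10 pairs.

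Pairs 9, 8 and 10 had the lowest daughter correlations, at 0.426, 0.455 and 0.464, and other measures ordered the pairs differently. Cells of pairs 9 and 10 also correlated weakly with those of other founders (0.361 and 0.376 on average), and in pair 10 each sister was the most similar cell of the other. Pair 11 had the smallest gain over cells of other founders, 0.041, and the largest median difference per gene, 1.67, where pair 10 had 0.089 and 0.90. As a count of 1 cell against 1 cell, with no replicate, genes were taken that differed by at least 3 on the log2 scale with at least 100 CPM in the higher cell. Pair 9 had 1447 of 6264 genes past that fold (23.1%), pair 10 had 1403 (22.4%) and pair 8 had 1126 (18%). The numbers were 755 (12.1%) in pair 13, 670 (10.7%) in pair 11, 633 (10.1%) in pair 5, 600 (9.58%) in pair 1, 587 (9.37%) in pair 6, 557 (8.89%) in pair 2 and 357 (5.7%) in pair 3. Cells of different founders gave 1025 on average. For pairs 8, 9 and 10 the counts were close to the means of 1117, 1462 and 1432 that their cells gave with other founders, and in each of the other 7 pairs the count lay below that mean, which was 790 for pair 3.

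The 2 cells of pair 9, which differed in Xist and Y-linked reads, differed in lineage genes too. Cell 1 was the higher one for Elane (neutrophil elastase) at 4028 against 1.23 CPM, Ms4a3 at 1489 against 0 CPM and Ctsg (cathepsin G) at 8545 against 1142 CPM. Cell 2 was the higher one for Lyz2 (lysozyme) at 5189 against 0.792 CPM, Csf1r (the macrophage colony-stimulating factor receptor) at 885 against 7.13 CPM and Irf8, a transcription factor of monocytes and dendritic cells, at 269 against 0.396 CPM. Ly6c2, a monocyte marker of the same list, was at 153 and 94.2 CPM, and Mpo and Prtn3 were high in both cells. Among the 6264 tested genes Lta4h (leukotriene A4 hydrolase) differed most, at 3111 against 1.23 CPM, and Capg, a macrophage actin-capping protein, was at 1.19 against 1954 CPM. Ercc3, a helicase of transcription and repair, was at 927 against 0 CPM. On list means cell 2 lay higher by 2.71 for G2/M genes and by 3.27 for cholesterol synthesis. In pair 10 Irf8 was at 157 and 987 CPM, Csf1r at 504 and 0 CPM and Elane at 0 and 0.315 CPM.

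In pair 8 both cells were erythroid, with Gata1 at 286 and 777 CPM and Klf1 at 150 and 978 CPM. Cell 1 was higher for 737 of the 1126 genes past the fold. Cdt1, which licenses replication origins, was at 706 CPM in cell 1 and 0 in cell 2, Nat10, an RNA acetyltransferase, at 629 and 0 CPM and Sec13, of vesicle coats and nuclear pores, at 813 and 0.354 CPM. Sh2b3, an adaptor that dampens cytokine signalling, was at 0 CPM in cell 1 and 708 in cell 2, the beta-catenin gene Ctnnb1 at 0 and 650 CPM and the kinase gene Btk at 0 and 578 CPM. The G2/M list lay 1.63 higher in cell 1, the largest such gap among the erythroid pairs. In pair 10 the phosphatase gene Ptpn6 was at 1444 and 0.945 CPM, the adaptor gene Ap1b1 at 1321 and 0.630 CPM and Sgsm3 at 1211 and 0 CPM, while Kif11, a spindle motor, was at 0 and 521 CPM and Araf, a kinase gene, at 0 and 487 CPM.

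In pairs 11 and 3 the 2 cells differed in several gene groups. In pair 11 cell 1 detected 9089 genes and cell 2 detected 6954. List means there lay higher in cell 1 by 2.27 for adult globins, 2.54 for iron genes, 1.62 for ribosomal protein genes, 1.29 for the respiratory chain, 1.11 for cholesterol synthesis and 4.50 for the 4 tested megakaryocyte markers, while late erythroid genes differed by 0.42. Whether the gap in detected genes plays a part in those list differences was not tested. Pair 3, which had the highest daughter correlation, still differed by 1.74 in adult globins, with Hba-a1 at 78.5 and 173 CPM, and by 1.29 in cholesterol synthesis, higher in cell 2 for both. Cell 1 was higher by 2.42 for the megakaryocyte markers. Gaps of this size were not particular to pair 3. Adult globins differed by 1.80 in pair 5 and megakaryocyte markers by 2.39 in pair 6, and each of these lists holds 4 tested genes.

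Founder differences were compared with the 13 dexamethasone pairs, which share no library with the untreated ones. There edgeR called 169 of 6949 genes (2.43%). Of the 29 genes called in untreated pairs all were tested there and 15 were called, which is 51.7% of the untreated and 8.88% of the dexamethasone calls. They included Mpo (adjusted p = 0.00111), Hba-a1 (0.00159), Klf1 (0.00198), Lmna (0.00189), Cd24a (0.00270), Hmgn2 (0.00523), Tmsb4x (0.00523), Coro1a (0.0112), Ermap (0.0182), Hbb-bs (0.0214) and Gata1 (0.0393). Car2 (0.332), Asns (0.1503), Trpv2 (0.387), Slc16a1 (1.00) and Gmpr (1.00) were not called there. None of the 13 dexamethasone pairs was left out of that fit, and their granulocyte and monocyte markers were not examined as a list. Whether these calls rest on founders of another lineage, as with untreated pairs 9 and 10, was not tested. For Slc16a1 the daughters with dexamethasone differed by 3.61 and founders by 3.17, and for Gmpr by 3.59 and 3.23. Of the 29 genes 25 had a smaller difference between daughters in the dexamethasone pairs, with a median excess of 1.10 against 0.29 for all genes. Dyrk3, least shared without dexamethasone, differed there by 2.54 between daughters and 3.45 between founders. The gain in correlation of daughters over other cells was 0.078 ± 0.026 (SD, n = 10 pairs) untreated and 0.062 ± 0.039 (SD, n = 13 pairs) with dexamethasone, a difference of 0.016 within the spread over pairs (permutation test over pairs, two-sided, p = 0.272).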

How the data were processed

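Single-cell RNA sequencing counts of daughters of mouse BFU-E founders were analysed. The authors deposited 1 table of raw read counts per treatment, not normalized, and per the submitters' processing notes used STAR 2.4, featureCounts and GRCm38. The sources used here give no setting for strand or shared reads, so overlapping, antisense and near-identical genes carry uncertain counts. No molecular identifiers are mentioned, so reads are not molecules. Gene positions are from GENCODE M21 (GRCm38).

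A gene was tested if 8 or more of the 20 cells held 5 counts of it. Differences between founders were tested with edgeR 4.0.16 (R 4.3.3; TMM, quasi-likelihood F test of the pair terms, Benjamini-Hochberg adjustment, adjusted p under 0.05 called). Daughters were compared with 100000 random re-pairings of the cells on log2(CPM + 1), two-sided, and with every re-pairing inside library plate columns. A gene with 1 level in 2 pairs and another in 8 cannot fall below p = 0.0185 in the random re-pairing. Both the edgeR and the re-pairing steps were tested on simulated counts with the same dispersion for every gene. That setting does not imitate genes read in 1 daughter and absent from the other. Alternatives were limma 3.58.1, DESeq2 1.42.0, other filters, scaling, thinning and pairs left out. The runs without pairs 9 and 13, without pairs 9, 10 and 13, and inside columns without pairs 9 and 10 or with thinned libraries, and the list means with pairs left out, were added after seeing the data.

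Genes named were the 12 with the smallest edgeR p, 10 from re-pairing, the 12 least shared at 50 CPM or more, the 6 with the smallest daughter difference, 12 from each of the 3 least similar pairs, up to 4 per list and 14 fixed genes, with predicted genes left out. The remaining edgeR calls, the other markers of pairs 2, 5, 9, 10 and 13 and the sex-linked genes besides Xist, Ddx3y and Eif2s3y were named after their values were seen. The members, the 32 gene lists (675 genes, 674 of them in the tables) and the tests were chosen with earlier results of these data known. Untreated pairs 4, 7 and 12 were left out for depth.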

Additional observations from a re-analysis of the deposited data

Results flagged for a closer look

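Of 20 groups of 10 pair values tested, 5 held 1 pair whose gap to the nearest other pair was large for the range of the group. Chance flags about 1 group in 20, which here is 1 group, if the pair values are normally distributed. Most of these values are absolute differences, for which that rate need not hold. In pair 6 the library totals of the daughters differed by 1.53 on the log2 scale, and in pair 11 the numbers of detected genes differed by 2135. Klf1 differed by 2.70 between the daughters of pair 8, with 150 and 978 CPM. Epor differed by 8.75 between the daughters of pair 13, with 0.216 and 524 CPM, in the pair whose cell 1 held both Xist and Y-linked reads. Hba-a1 differed by 2.07 between the 2 cells of pair 9, with 1.58 and 9.81 CPM, in the pair with Xist reads in 1 cell and Y-linked reads in the other.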

How the results depend on the processing

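The call count of edgeR (29) moved to 62 with a filter of 1 count in 2 cells, 19 with the cell number as a covariate, 1 without pairs 9 and 10, 4 without pairs 9, 10 and 13 (Arl6ip1, Car2, Hba-a1 and Ccne1), 359 with limma and 1042 with DESeq2. Leaving out 1 pair in turn gave 20 to 37 calls. The re-pairing count (11) fell to 0 with log2(CPM + 10), with thinned libraries, without pairs 9 and 10 and without pairs 9 and 13, and to 0 to 6 without 1 pair in turn, so for each of these calls some single pair, left out, ended it. Inside plate columns it was 0 (361 genes, 5.76%, at an unadjusted p under 0.05), where the smallest possible exact p was 0.000593. With that floor a few genes could not pass the adjustment, so this 0 was close to set in advance. The median number of genes past the fold in a pair (651.5) was 428.5 with a difference of at least 5 and 1115 with at least 50 CPM. Without pairs 9 and 13 the difference of daughters minus that of re-paired cells was -0.35 for log2 library totals (permutation p = 0.112) and -392 for detected genes (permutation p = 0.0595). The daughter correlation kept its direction and call in each of the 20 alternatives run, with 0.0665 to 0.0846 above re-paired cells when 1 pair was left out. Reversals numbered 0 for the correlation, library totals and detected genes, and a call count cannot reverse. Some list means did change sign, as Gata1 did within the 8 pairs. Without pairs 9 and 10 the excess of founder over daughter difference went from 0.73 to -0.02 for ribosome biogenesis and from 0.25 to -0.09 for iron genes. Without pair 13 it went from 0.21 to -0.04 for mitochondrially encoded genes. No paired analysis was possible because the pair numbers of the 2 treatments name different founder cells. Depth limits genes under 10 CPM, where a value rests on few reads.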
